A study of Mus musculus with 60 samples.

Results

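The C/EBP genes Cebpa, Cebpb, Cebpd and Cebpg were followed for 32 h in primary mouse hepatocytes given interleukin 6 (IL-6), hepatocyte growth factor (HGF) or both. These 4 were taken from 18194 genes by their symbols, each through the brightest of its probe sets on average, and all 4 were among the 14513 genes that passed the intensity filter. Their symbols cover 8 probe sets of the array: 1 for Cebpa, 2 for Cebpb, 2 for Cebpd and 3 for Cebpg. The cells came from male C57BL/6N mice of 8 to 12 weeks, from 1 animal or a pool of up to 3, and were plated on collagen I. All groups, unstimulated cells included, were kept for 24 h without serum and with 100 nM dexamethasone, a synthetic glucocorticoid. Cells then received 40 ng/ml recombinant human IL-6 plus 40 ng/ml recombinant mouse HGF, either factor alone at the same dose, or neither. RNA was taken at 7 times between 0.5 and 32 h, with 2 arrays for each of the 4 conditions and times, and from unstimulated cells at 0 h with 4 arrays, which makes 60 arrays in 29 groups. Values are log2 intensities of Affymetrix mouse arrays, so that a difference of 1 is a doubling of signal. The series text speaks of biological triplicates, whereas the labels do not tie the arrays of a group to separate animals, so p-values rest on a spread between arrays that may be technical. The number of arrays limits the precision.

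C/EBP proteins are basic leucine zipper (bZIP) factors that bind DNA as dimers with one another. Cebpa encodes the factor that maintains the differentiated, resting hepatocyte and its metabolic genes. Cebpb (once called NF-IL6) and Cebpd encode factors of the hepatic acute phase response, and C/EBP beta also takes part in liver regeneration. Cebpg encodes a short relative without a classical activation domain, which acts through its dimer partners, among them ATF4. IL-6 acts through the receptor chain gp130 on the kinases of the JAK family and on STAT3, and HGF acts through the receptor tyrosine kinase MET. Arrays measure transcripts, and the translational isoforms and modifications of these proteins are not seen by them.

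Promoter sequences are given here for the members that moved in opposite directions under IL-6 (Cebpb and Cebpa) and for Cebpg. They come from RefSeq (GRCm38.p6), run 5′ to 3′ from 250 bases before to 50 after the annotated start, and 3 of the 4 symbols matched. Capitals mark matches to the motifs searched on both strands, which were TTCNNNGAA (STAT), TTGCNNAA (C/EBP), TGACGTCA (CRE), TGACG (the core of the CRE), TGANTCA (AP-1), GGGCGG (GC box), CCAAT (the box of that name) and TATAAA. The Cebpb window is chr2:167688665-167688964 on the plus strand, the Cebpa window chr7:35119043-35119342 on the plus strand and the Cebpg window chr7:35056517-35056816 on the minus strand.
Cebpb: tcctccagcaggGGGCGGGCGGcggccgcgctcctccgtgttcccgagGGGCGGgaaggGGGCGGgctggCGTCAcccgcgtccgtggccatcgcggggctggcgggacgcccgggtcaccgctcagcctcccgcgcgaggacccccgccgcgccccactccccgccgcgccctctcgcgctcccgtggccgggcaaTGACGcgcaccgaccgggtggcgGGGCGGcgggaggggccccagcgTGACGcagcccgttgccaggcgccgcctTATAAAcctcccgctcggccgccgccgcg
Cebpa: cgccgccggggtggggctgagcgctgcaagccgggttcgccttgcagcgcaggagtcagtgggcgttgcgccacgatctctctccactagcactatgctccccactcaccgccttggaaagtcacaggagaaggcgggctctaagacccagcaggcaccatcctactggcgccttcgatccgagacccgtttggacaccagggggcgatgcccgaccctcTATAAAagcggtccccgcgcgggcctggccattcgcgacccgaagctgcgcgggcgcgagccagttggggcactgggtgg
Cebpg: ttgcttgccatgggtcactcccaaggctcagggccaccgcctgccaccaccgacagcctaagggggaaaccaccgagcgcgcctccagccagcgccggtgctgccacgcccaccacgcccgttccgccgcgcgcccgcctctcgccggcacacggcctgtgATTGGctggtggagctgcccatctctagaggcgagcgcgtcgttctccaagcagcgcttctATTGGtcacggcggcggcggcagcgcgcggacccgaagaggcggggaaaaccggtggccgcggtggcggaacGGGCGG
The Cebpb window held 5 GC boxes, a pair of which overlap, 3 CRE cores and a TATAAA that lies downstream of the annotated start, at positions 22 to 27. The CRE cores start at positions -180, -53 and -7, the first of them on the minus strand. The Cebpa window held a TATAAA at positions -30 to -25 and no other match. The Cebpg window held CCAAT on the minus strand at positions -89 to -85 and -28 to -24 and a GC box at 45 to 50. Among 32851 promoters of the same length, a GC box stood in 35.7%, CCAAT in 37.4%, the CRE core in 20.8%, TATAAA in 13.6%, the C/EBP letters in 10.8%, the STAT letters in 8.3%, the AP-1 letters in 7.81% and the whole CRE in 1.79%. The letters of the STAT, C/EBP, AP-1 and whole CRE motifs were not in these 3 windows.

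The hepatocyte label was checked against marker genes. Alb, which encodes serum albumin, stood at the 100th percentile on every array, and the summed signal of 6 hepatocyte markers lay between 15.1 and 16.3 on the log2 scale. Markers of macrophages summed to 8.5 to 9.7, of neutrophils to 6.4 to 7.0, of endothelium to 7.9 to 9.2, of stellate cells to 7.6 to 8.6 and of bile ducts to 8.2 to 10.1. The neutrophil genes S100a8 and S100a9, the leukocyte gene Ptprc, the stellate gene Lrat and the duct gene Cftr did not pass the filter. All other measured markers passed. The highest of those of other cell types were Krt19 of ducts, up to the 91.4 percentile, Cd68 of macrophages (88.8), Lyve1 of endothelium (84.7) and Sox9 of ducts (84.3). Among hepatocyte markers Cps1 went lowest, to the 70th percentile. From 8 h on the duct markers summed to 8.74 to 9.37 under IL-6 plus HGF, 8.41 to 9.50 under IL-6 and 8.86 to 10.1 under HGF, against 8.51 to 9.11 in unstimulated cells. In such bulk samples fewer cells of a type and less RNA per cell cannot be told apart. A control transcript added at labelling (dap) divided the arrays: its 3′ minus 5′ signal was 2.62 to 3.72 on the 42 stimulated arrays, against 2.63 to 2.89 in unstimulated cells from 8 h on (8 arrays) and 1.22 to 1.48 in those of 0 to 4 h (10 arrays). Differences between stimulated and unstimulated cells at 0.5 to 4 h therefore cross this step in labelling, and are said below to cross the labelling classes. Those at 8 to 32 h and between stimuli do not cross it and are called within 1 class, but the controls differed there too: dap reached 3.08 under HGF, 3.24 under the combination and 3.72 under IL-6. The hybridisation control bioB lay at 5.30 to 6.01 under IL-6 plus HGF, 5.47 to 7.10 under IL-6 and 5.86 to 8.35 under HGF, against 8.09 to 8.46 in unstimulated cells of any hour. The part of these markers and controls in the results below was not tested.

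Cebpd was the C/EBP gene with the largest response, and IL-6 was the stimulus that raised it, with or without HGF. At each of the 7 hours from 0.5 to 32 h every IL-6 array and every combination array lay above every HGF and every unstimulated array. HGF alone moved the gene by less than 1 log2 unit at every hour. At 0.5 h Cebpd read 10.73 and 10.55 under IL-6 plus HGF, 10.70 and 10.64 under IL-6 and 9.09 and 9.04 under HGF, against 8.97 and 8.88 in unstimulated cells. At 2 h the values were 11.33 and 11.21 under IL-6 plus HGF, 11.54 and 11.49 under IL-6 and 9.07 and 8.86 under HGF, against 9.23 and 9.13 in unstimulated cells. The 4 arrays with IL-6 thus stood apart from the others by the first hour measured, a 3.35-fold difference for IL-6 alone at 0.5 h, and read higher still at 2 h. At 4 h they were 11.84 and 11.76 under IL-6 plus HGF, 11.51 and 11.47 under IL-6 and 8.85 and 8.97 under HGF, against 8.90 and 8.99 in unstimulated cells, and at 8 h 11.32 and 11.42 under IL-6 plus HGF, 11.17 and 11.31 under IL-6 and 8.62 and 8.63 under HGF, against 8.33 and 8.22 in unstimulated cells. In all 4 conditions the 8 h arrays read below the 4 h arrays. At 16 h the arrays read 11.01 and 11.01 under IL-6 plus HGF, 11.15 and 11.21 under IL-6 and 8.58 and 8.69 under HGF, against 8.62 and 8.63 in unstimulated cells, and at 24 h 11.23 and 11.21 under IL-6 plus HGF, 11.62 and 11.57 under IL-6 and 8.64 and 8.47 under HGF, against 9.39 and 9.20 in unstimulated cells. At 32 h Cebpd read 12.05 and 11.90 under IL-6 plus HGF, 12.05 and 12.14 under IL-6 and 8.96 and 8.71 under HGF, against 9.29 and 9.09 in unstimulated cells, and both IL-6 arms had their highest values of the series there.

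Against unstimulated cells the IL-6 difference in Cebpd was 1.75 (SE 0.08, adjusted p = 5.99e-21) at 0.5 h, 2.33 (SE 0.08, adjusted p = 5.68e-26) at 2 h and 2.91 (SE 0.08, adjusted p = 1.42e-30) at 32 h, by limma with p-values adjusted over all genes within the hour. It lay at 2.55, 2.97, 2.56 and 2.30 at 4, 8, 16 and 24 h. For the combination it was 1.72 (SE 0.08, adjusted p = 7.26e-21) at 0.5 h, 2.09 at 2 h, 2.86 at 4 h, 2.38 at 16 h, 1.93 at 24 h and 2.79 at 32 h. Within 1 labelling class, IL-6 stood above HGF by 1.60 (SE 0.08, adjusted p = 2.63e-19) at 0.5 h and 3.04 (SE 0.08, adjusted p = 2.44e-31) at 24 h. At 2 and 4 h it stood 2.55 and 2.58 above HGF, no less than above unstimulated cells. Summed macrophage markers overlapped at 8 to 32 h, with 8.47 to 9.03 under IL-6 and 8.63 to 9.15 in unstimulated cells. Up to 4 h they did not, with 8.87 to 9.18 under IL-6 and 9.27 to 9.69 in unstimulated cells. The second Cebpd probe set lay at the 50.1 to 67.8 percentile of its arrays and correlated with the first at r = 0.94 over the 60 arrays. It gave smaller IL-6 differences, 0.47 at 0.5 h and 0.80 at 8 h, and passed the test at all 7 hours.

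**Figure D1:**
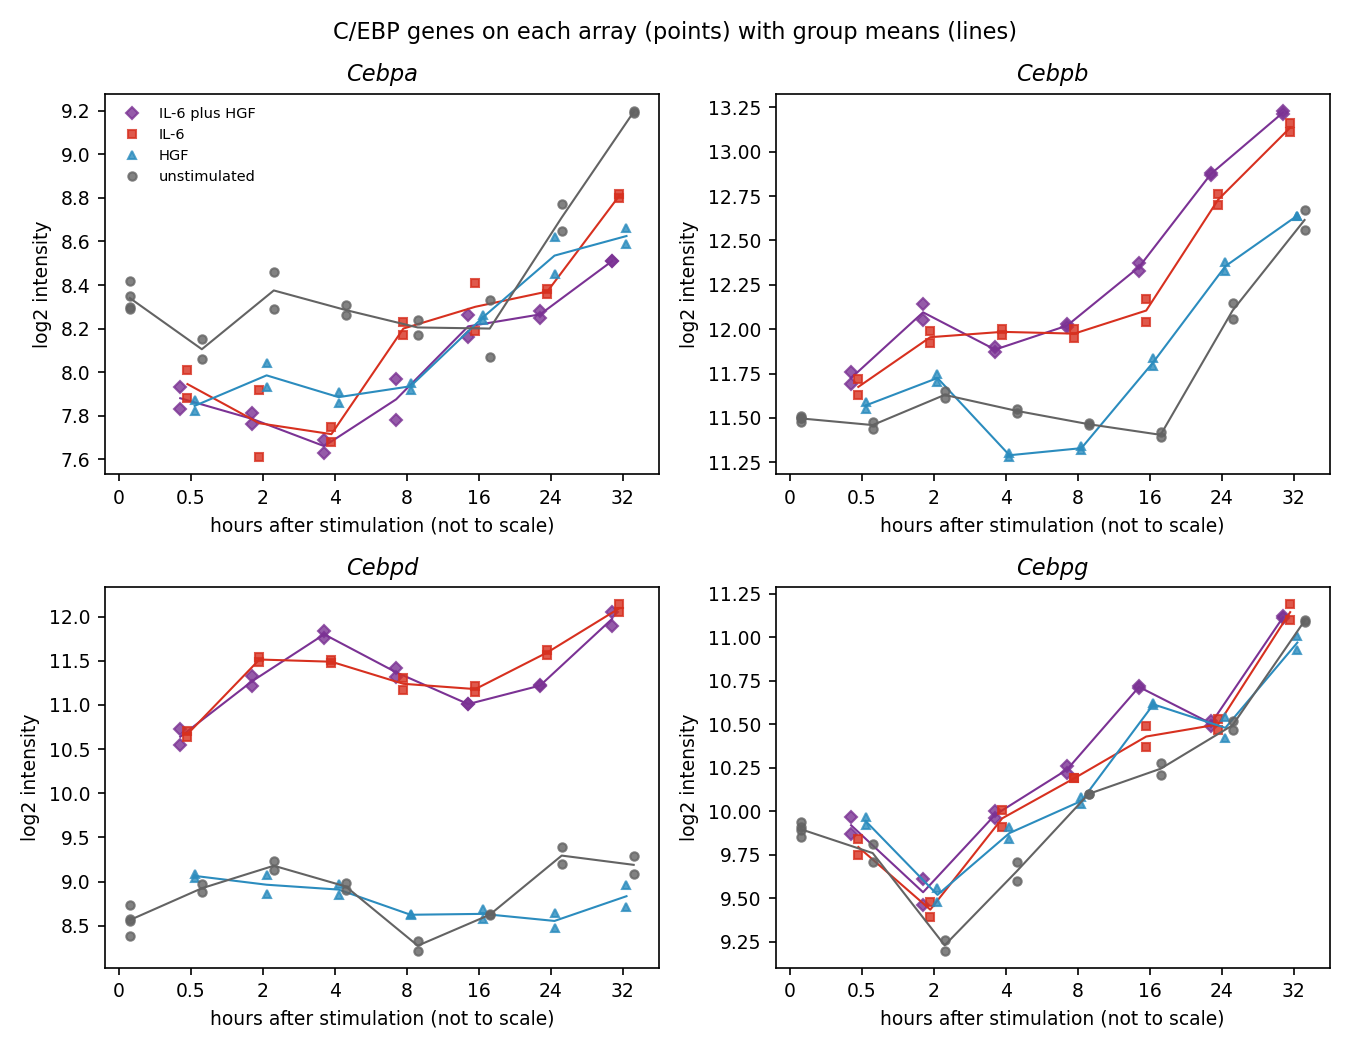
Log2 intensity (vertical axes, which differ between panels and do not start at 0) of the 4 C/EBP genes at each hour (horizontal axes, not to scale), with 1 point per array and a line through the group means. IL-6 and IL-6 plus HGF stand above HGF and unstimulated cells for Cebpd at every hour, with 10.55 to 10.73 against 8.88 to 9.09 at 0.5 h, and all 4 genes are higher at 32 h than at 0 h in unstimulated cells.

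HGF alone gave smaller changes in Cebpd, which was furthest from unstimulated cells at 24 h. There Cebpd was lower, with a difference of -0.74 (SE 0.08, adjusted p = 6.29e-10), and the HGF arrays of 8.64 and 8.47 lay below the unstimulated arrays of 9.39 and 9.20. At 8 h it was higher by 0.35 (SE 0.08, adjusted p = 0.000968). It was also lower at 32 h (-0.351, adjusted p = 0.00106) and, across the labelling classes, at 2 h (-0.215, adjusted p = 0.0442). With 1 array left out in turn, these 2 ranged from -0.476 to -0.227 and from -0.318 to -0.111. Between 8 and 32 h the HGF difference changed by -0.70 (SE 0.12, adjusted p = 2.15e-05 for the change itself), a test that 15.6% of all genes passed. The dim second probe set gave 0.06 at 24 h (adjusted p = 0.779), 0.27 at 8 h (adjusted p = 0.136), and for the change -0.46 (adjusted p = 0.0897). It gave -0.197 at 32 h (adjusted p = 0.314) and -0.0874 at 2 h (adjusted p = 0.692), so all these calls rest on 1 probe set.

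Cebpb rose under IL-6 and under the combination, by less than Cebpd. From 8 h on, within 1 labelling class, it stood 1.43 to 1.62 times higher with IL-6 and 1.47 to 1.92 times higher with both factors than in unstimulated cells. Its level also climbed late in all conditions. At 8 h Cebpb read 12.03 and 12.01 under IL-6 plus HGF, 11.95 and 12.00 under IL-6 and 11.34 and 11.32 under HGF, against 11.46 and 11.47 in unstimulated cells. At 16 h the values were 12.33 and 12.37 under IL-6 plus HGF, 12.17 and 12.04 under IL-6 and 11.84 and 11.79 under HGF, against 11.42 and 11.39 in unstimulated cells, the hour at which both IL-6 arms were furthest above unstimulated cells on this probe set. On the other probe set that hour was 32 h, with 1.01 for the combination and 0.94 for IL-6. At 24 h Cebpb read 12.88 and 12.87 under IL-6 plus HGF, 12.76 and 12.70 under IL-6 and 12.38 and 12.33 under HGF, against 12.15 and 12.06 in unstimulated cells, and at 32 h 13.23 and 13.21 under IL-6 plus HGF, 13.16 and 13.11 under IL-6 and 12.64 and 12.64 under HGF, against 12.67 and 12.56 in unstimulated cells. At these 4 hours no IL-6 or combination array overlapped an unstimulated one. The IL-6 difference was 0.70 (SE 0.04, adjusted p = 1.31e-18) at 16 h and 0.52 (SE 0.04, adjusted p = 1.64e-14) at 32 h. For the combination it was 0.94 (SE 0.04, adjusted p = 5.84e-24) at 16 h and 0.60 (SE 0.04, adjusted p = 6.42e-17) at 32 h.

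The early hours of Cebpb depended on the probe set. On the probe set used, the arrays at 0.5 h read 11.69 and 11.76 under IL-6 plus HGF, 11.63 and 11.72 under IL-6 and 11.55 and 11.59 under HGF, against 11.44 and 11.48 in unstimulated cells, and at 4 h 11.87 and 11.90 under IL-6 plus HGF, 12.00 and 11.97 under IL-6 and 11.28 and 11.30 under HGF, against 11.55 and 11.53 in unstimulated cells. This gave IL-6 differences of 0.21 (SE 0.04, adjusted p = 9.47e-05) at 0.5 h, 0.32 (SE 0.04, adjusted p = 2.65e-08) at 2 h and 0.44 (SE 0.04, adjusted p = 5.31e-12) at 4 h. On the other probe set, which correlated with it at r = 0.955 over the 60 arrays, the same differences were -0.19 (adjusted p = 0.0217), -0.12 (adjusted p = 0.145) and 0.01 (adjusted p = 0.927). These are the hours that cross the labelling classes. From 8 h on both probe sets gave rises, 0.55 to 0.94 for IL-6 on the second. Between stimuli, which share a class, they lay close at 2 and 4 h. IL-6 exceeded HGF at 4 h by 0.69 (SE 0.04, adjusted p = 3e-18) on the first and by 0.71 on the second. At 2 h IL-6 exceeded HGF by 0.23 on the first and 0.27 on the second (limma, adjusted p = 6.2e-05 and 0.00201). The 2 probe sets lay further apart later, also within 1 class. IL-6 exceeded HGF by 0.28 and 0.53 at 16 h and by 0.49 and 0.94 at 32 h. The cause of these gaps was not tested. From unstimulated cells at 4 h, IL-6 lay at 0.01 and HGF at -0.70 on the second. Cebpb thus stood higher with IL-6 than with HGF on both probe sets at 2 and 4 h. Above unstimulated cells, IL-6 alone passed on both only from 8 h. The combination also did at 2 h, by 0.47 and 0.17 (limma, adjusted p = 6.04e-13 and 0.0209).

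**Figure D2:**
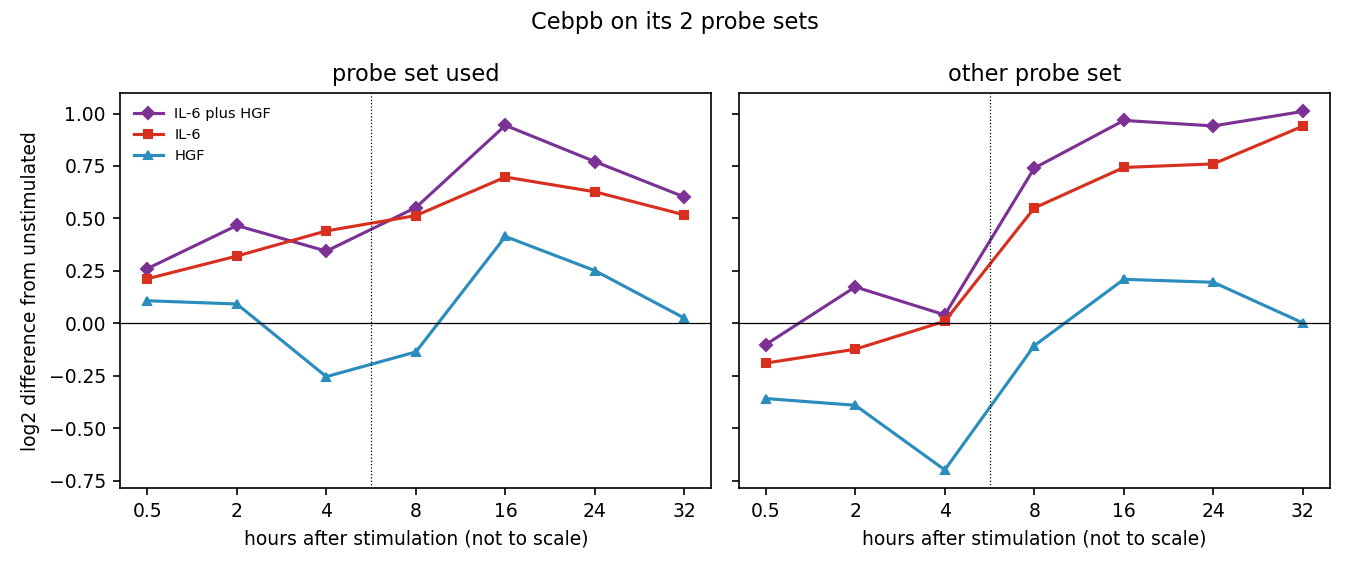
Log2 difference of Cebpb from unstimulated cells of the same hour (vertical axis) at the 7 hours (horizontal axis, not to scale) on its 2 probe sets, for IL-6 plus HGF, IL-6 and HGF. Left of the dotted line the contrasts cross the labelling classes: IL-6 lies at 0.21 to 0.44 on the first probe set and at -0.19 to 0.01 on the second, while both show rises to its right.

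Under HGF alone Cebpb took another course. At 4 h it was lower than in unstimulated cells, with a difference of -0.25 (SE 0.04, adjusted p = 1.76e-06), and of -0.70 on the second probe set, at an hour that crosses the labelling classes. It rose by 0.41 (SE 0.04, adjusted p = 9.11e-12) at 16 h and by 0.25 (SE 0.04, adjusted p = 1.98e-06) at 24 h, where the second probe set gave 0.21 and 0.20. By 32 h the HGF arrays overlapped the unstimulated ones and the difference was 0.03 (SE 0.04, adjusted p = 0.724).

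Cebpa moved down in all 3 stimulated arms, by less than 1 log2 unit. It was lower at 2, 4 and 32 h in all 3, and did not differ detectably at 16 h in any. At 8 h Cebpa read 7.78 and 7.97 under IL-6 plus HGF, 8.23 and 8.17 under IL-6 and 7.92 and 7.95 under HGF, against 8.17 and 8.24 in unstimulated cells. There the difference was -0.33 (SE 0.08, adjusted p = 0.00101) for the combination and -0.27 (SE 0.08, adjusted p = 0.00876) for HGF, but -0.01 (SE 0.08, adjusted p = 0.983) for IL-6. The 8 h test did not pass for the combination without its replicate 1 (-0.24, adjusted p = 0.0677), nor for HGF without its replicate 1 (-0.25, adjusted p = 0.0717) or unstimulated replicate 2 (-0.24, adjusted p = 0.0866). At 32 h Cebpa read 8.51 and 8.51 under IL-6 plus HGF, 8.82 and 8.80 under IL-6 and 8.66 and 8.59 under HGF, against 9.19 and 9.20 in unstimulated cells. All 6 stimulated arrays lay below both unstimulated ones. The difference was -0.69 (SE 0.08, adjusted p = 2.19e-09) for the combination, -0.38 (SE 0.08, adjusted p = 0.00028) for IL-6 and -0.57 (SE 0.08, adjusted p = 2.94e-07) for HGF. At 24 h the values were 8.28 and 8.25 under IL-6 plus HGF, 8.36 and 8.38 under IL-6 and 8.62 and 8.45 under HGF, against 8.65 and 8.77 in unstimulated cells, again without overlap between stimulated and unstimulated arrays. The fall at 24 h was -0.45 (SE 0.08, adjusted p = 1.52e-05) for the combination and -0.34 (SE 0.08, adjusted p = 0.00111) for IL-6, and the HGF difference was -0.18 (SE 0.08, adjusted p = 0.0856). At 16 h the arrays overlapped, with 8.26 and 8.16 under IL-6 plus HGF, 8.41 and 8.19 under IL-6 and 8.26 and 8.24 under HGF, against 8.33 and 8.07 in unstimulated cells.

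Early Cebpa values were lower in stimulated cells too, at hours that cross the labelling classes. At 2 h they were 7.81 and 7.76 under IL-6 plus HGF, 7.61 and 7.92 under IL-6 and 7.93 and 8.04 under HGF, against 8.46 and 8.29 in unstimulated cells, with the widest gap between arrays of a group (0.31, under IL-6). At 4 h they were 7.69 and 7.63 under IL-6 plus HGF, 7.68 and 7.75 under IL-6 and 7.86 and 7.91 under HGF, against 8.26 and 8.31 in unstimulated cells. At 4 h the differences were -0.62 (SE 0.08, adjusted p = 1.85e-08) for the combination, -0.57 (SE 0.08, adjusted p = 2.89e-07) for IL-6 and -0.40 (SE 0.08, adjusted p = 0.000117) for HGF. The change of unstimulated cells between 4 and 8 h, where their labelling class changes, was -0.33 beyond the mean change of the stimulated arms for Cebpa, -0.13 for Cebpb, -0.35 for Cebpd and 0.22 for Cebpg. With the test restricted to 8 to 32 h, Cebpa still passed under the combination (adjusted p = 4.73e-11), IL-6 (adjusted p = 3.1e-05) and HGF (adjusted p = 1.46e-07, limma).

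Cebpg differed from unstimulated cells by at most 0.47 in size at any hour on the probe set used. It stood higher at 16 h under HGF and under the combination, and no arm passed at 24 h. At 16 h Cebpg read 10.72 and 10.71 under IL-6 plus HGF, 10.49 and 10.37 under IL-6 and 10.62 and 10.61 under HGF, against 10.21 and 10.28 in unstimulated cells. All 6 stimulated arrays lay above both unstimulated ones. The difference was 0.47 (SE 0.05, adjusted p = 2.93e-10) for the combination and 0.37 (SE 0.05, adjusted p = 1.47e-07) for HGF. Under IL-6 it was 0.19 (SE 0.05, adjusted p = 0.00585), which did not pass without IL-6 replicate 1 of that hour (0.13, adjusted p = 0.181) or without unstimulated replicate 1 (0.15, adjusted p = 0.0945). Of the other probe sets, the brighter gave 0.37 for the combination and 0.46 for HGF at 16 h, and the dimmer gave 0.21 (adjusted p = 0.234) and 0.36 (adjusted p = 0.0305). At 24 h the arrays overlapped, with 10.49 and 10.52 under IL-6 plus HGF, 10.53 and 10.47 under IL-6 and 10.42 and 10.54 under HGF, against 10.52 and 10.47 in unstimulated cells. The dimmer probe set was lower at that hour, by -0.48 (adjusted p = 0.00461) under the combination, while -0.30 under IL-6 (adjusted p = 0.11) and -0.34 under HGF (adjusted p = 0.0501) did not pass. At 2 h, across the labelling classes, they were 9.61 and 9.46 under IL-6 plus HGF, 9.39 and 9.48 under IL-6 and 9.48 and 9.56 under HGF, against 9.26 and 9.20 in unstimulated cells, the lowest Cebpg values of each arm.

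**Figure D3:**
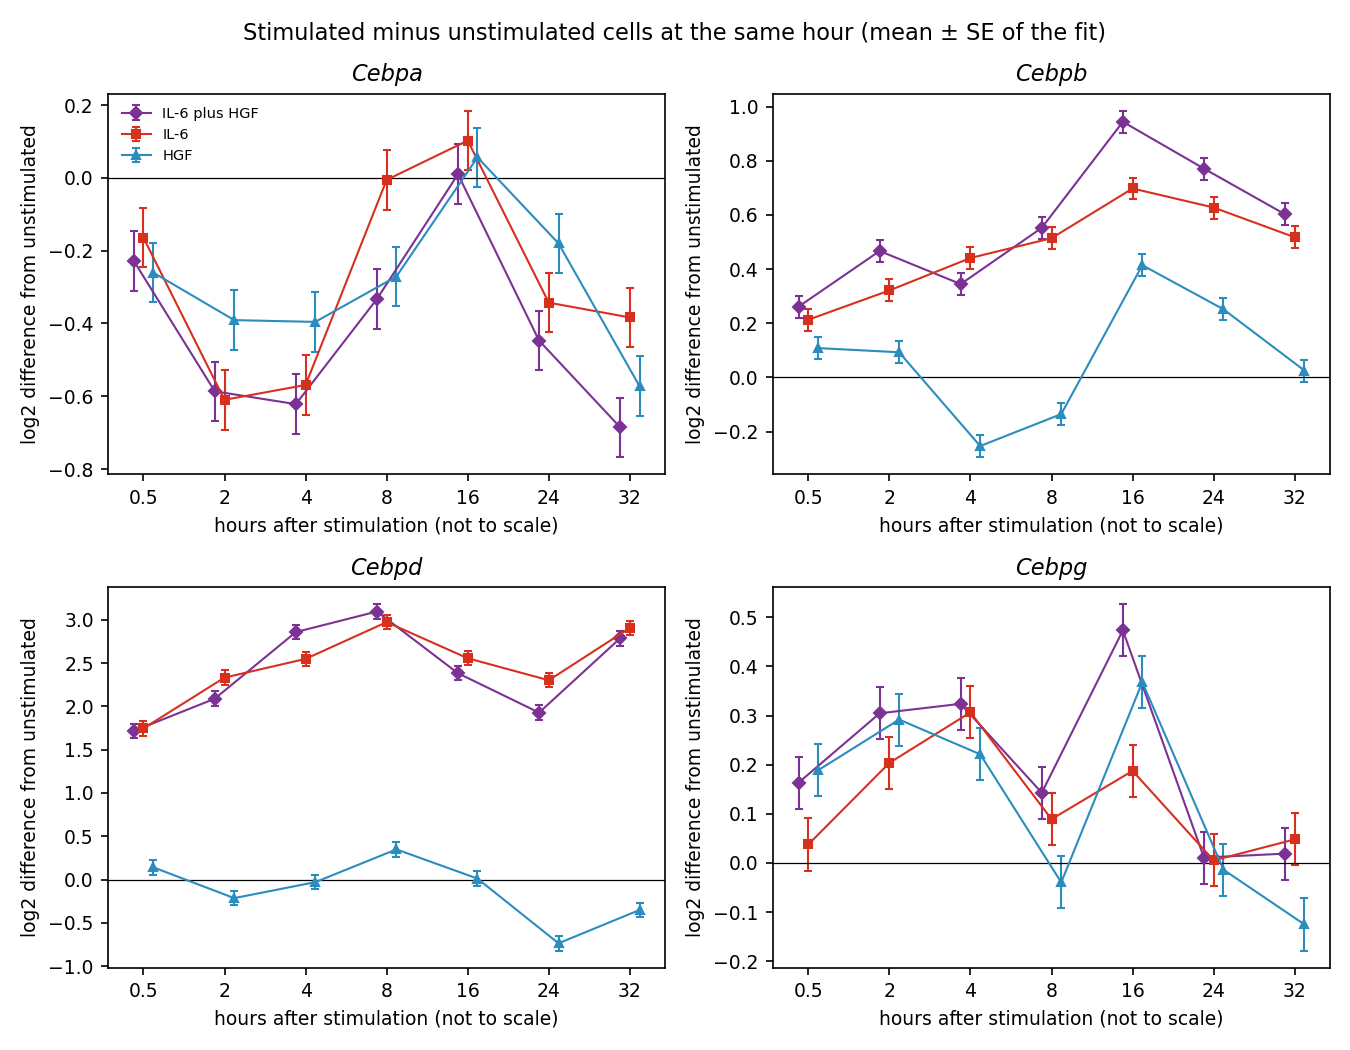
Log2 difference from unstimulated cells of the same hour (vertical axes, which differ between panels) for the 4 C/EBP genes at 7 hours (horizontal axes, not to scale), with bars of 1 SE of the fit, 2 arrays against 2. Cebpd lies at 1.72 to 3.09 in both IL-6 arms, Cebpa reaches -0.69 at 32 h under the combination, and Cebpg peaks at 0.47 at 16 h.

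Over all 7 hours together all 4 genes passed the F-test in each comparison with unstimulated cells. So did 62.6% of the 14513 genes for HGF, 55.1% for IL-6 and 68% for the combination, and passing alone does not set the C/EBP genes apart. At a single hour 20.2 to 38.4% of genes passed for HGF, 17.6 to 29.8% for IL-6 and 29.1 to 43.1% for the combination. By the size of the largest difference at any hour, Cebpd held rank 13 of 14513 under IL-6 and rank 22 under the combination. The 3 comparisons share their unstimulated arrays. At the hour of largest difference on the probe sets used, Cebpb, Cebpd and Cebpg were up and Cebpa down under IL-6 and under the combination. Under HGF, Cebpb and Cebpg were up and Cebpa and Cebpd down. The second Cebpb probe set had its largest HGF difference at 4 h, at -0.70. The dimmest Cebpg probe set had its largest combination difference at 24 h, at -0.48. Under HGF the second Cebpd probe set did not pass the F-test (adjusted p = 0.356). The adjusted p of the F-test under IL-6 was 3.28e-11 for Cebpa, 1.77e-26 for Cebpb, 4.98e-42 for Cebpd and 2.37e-06 for Cebpg.

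The direct comparison of the stimuli separated Cebpb and Cebpd from the other members. All 4 genes passed for IL-6 against HGF, where 51.2% of all genes did. IL-6 exceeded HGF for Cebpd at all 7 hours, by 1.60 to 3.26. For Cebpb it did so from 2 h on, by 0.23 (SE 0.04, adjusted p = 6.2e-05) at 2 h, 0.65 at 8 h and 0.49 (SE 0.04, adjusted p = 8.16e-14) at 32 h. For Cebpa and Cebpg no difference between IL-6 and HGF exceeded 0.27 in size at any hour that passed. Cebpg was lower under IL-6 than under HGF at 16 h (-0.18, SE 0.05, adjusted p = 0.00724), and the hour's test did not pass without IL-6 replicate 2 (-0.12). At 32 h Cebpg was higher under IL-6 (0.17, adjusted p = 0.0117), by 0.13 to 0.22 with 1 array left out in turn. The test did not pass in 2 of 28 such fits. The other Cebpg probe sets gave 0.03 (brighter, adjusted p = 0.815) and -0.21 (dimmer, adjusted p = 0.303) at 32 h.

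Adding HGF to IL-6 shifted the members by at most 0.37 at the hours of largest difference. All 4 passed, where 44.1% of all genes did. Cebpb stood higher with both factors than with IL-6 alone by 0.25 (SE 0.04, adjusted p = 9.25e-06) at 16 h, and the second Cebpb probe set gave 0.22. Cebpg was 0.29 (SE 0.05, adjusted p = 6.56e-05) higher at 16 h, with 0.11 on the brighter of its other probe sets (adjusted p = 0.219). Cebpa was lower with both at 32 h, with 8.51 and 8.51 under the combination against 8.82 and 8.80 under IL-6 (-0.30, SE 0.08, adjusted p = 0.00874). This did not pass without IL-6 replicate 1 (-0.29, adjusted p = 0.0685) or combination replicate 2 (-0.30, adjusted p = 0.0624). Cebpd was lower with both at 24 h, with 11.23 and 11.21 under the combination against 11.62 and 11.57 under IL-6 (-0.37, SE 0.08, adjusted p = 0.000819). The second Cebpd probe set gave a difference of 0.00 there. At 4 h Cebpd was higher with both (0.31, adjusted p = 0.00806), and 0.27 to 0.35 higher with 1 array left out in turn. Its second probe set gave 0.08 at that hour (adjusted p = 0.804). Against HGF alone, the combination raised Cebpb by 0.69 (SE 0.04, adjusted p = 2.6e-18) at 8 h and 0.58 (SE 0.04, adjusted p = 5.86e-16) at 32 h, and all 4 genes passed where 41.6% of all genes did.

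The interaction term asks whether the combination differs from the sum of the 2 single responses. It passed for Cebpa, Cebpb and Cebpd and not for Cebpg (adjusted p = 0.0564), where 33.6% of all genes passed. For Cebpa it was largest at 2 h, with 0.41 (SE 0.12, adjusted p = 0.0125), where the combination was less low than the single differences add up to. That hour did not pass without replicate 1 of unstimulated cells, HGF, IL-6 or the combination at 2 h (0.26 to 0.39), and restricted to 8 to 32 h the Cebpa term did not pass (adjusted p = 0.287). For Cebpd it was largest at 24 h, with 0.36 (SE 0.12, adjusted p = 0.0463), and the combination was higher than the sum. That hour did not pass in 16 of 60 fits that left out 1 array, among them those without unstimulated replicate 1 (0.27, adjusted p = 0.247), HGF replicate 2 or either array of IL-6 or of the combination at 24 h. Over 7 hours the Cebpd term did not pass on the mean over its probe sets (adjusted p = 0.5) or on the second one (-0.06 at 24 h, adjusted p = 0.917). For Cebpb no single hour passed on the probe set used, on which the term was 0.17 (SE 0.06, adjusted p = 0.0997) at 8 h and -0.17 (adjusted p = 0.0528) at 16 h. The second Cebpb probe set gave 0.45 at 0.5 h (adjusted p = 0.000455), 0.69 at 2 h (adjusted p = 2.9e-07) and 0.73 at 4 h (adjusted p = 1.33e-07), hours at which the term uses unstimulated arrays of the earlier labelling class.

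Without any added factor the members stood higher late in culture than at 0 h, Cebpd on 1 of its 2 probe sets. On the probe sets used all 4 genes were higher at 24 h and at 32 h than at 0 h, where 31.7% and 35% of all genes were, and all 4 passed over the 7 hours, where 75% of all genes did. The 0 h arrays of Cebpb read 11.50, 11.48, 11.51 and 11.50, those of Cebpa 8.30, 8.35, 8.42 and 8.29, those of Cebpg 9.89, 9.94, 9.91 and 9.85 and those of Cebpd 8.58, 8.74, 8.55 and 8.39. Later minus 0 h, the 32 h difference was 1.12 (SE 0.04, adjusted p = 3.1e-30) for Cebpb, 0.86 (SE 0.07, adjusted p = 7.67e-15) for Cebpa, 1.20 (SE 0.05, adjusted p = 7.7e-27) for Cebpg and 0.63 (SE 0.07, adjusted p = 1.66e-10) for Cebpd. The second Cebpd probe set gave 0.12 at 24 h (adjusted p = 0.373) and 0.13 at 32 h (adjusted p = 0.303), and over 7 hours it did not pass (adjusted p = 0.245). These differences cross the labelling classes. Within the later class, unstimulated Cebpb read 11.46 and 11.47 at 8 h and 12.67 and 12.56 at 32 h, without overlap. Unstimulated Cebpa read 8.17 and 8.24 at 8 h and 9.19 and 9.20 at 32 h, and Cebpg 10.10 and 10.10 at 8 h and 11.10 and 11.09 at 32 h, again without overlap. Within the earlier class Cebpg was lower at 2 h than at 0 h (-0.67, SE 0.05, adjusted p = 3.69e-15) and Cebpd higher (0.61, SE 0.07, adjusted p = 1.07e-08), the second Cebpd probe set giving 0.33 (adjusted p = 0.0533).

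Ordered by level over the 29 groups, the highest Cebpb and Cebpd means were those of the IL-6 arms at 32 h. For Cebpb these were 13.22 ± 0.00841 under the combination and 13.13 ± 0.04 under IL-6 (SD, n = 2 each), which did not differ by the test (adjusted p = 0.177). For Cebpd they were 11.98 ± 0.11 under the combination and 12.10 ± 0.06 under IL-6, also without a passing difference (adjusted p = 0.404). Cebpa was highest in unstimulated cells at 32 h, at 9.19 ± 0.01, above IL-6 at 32 h with 8.81 ± 0.01 beyond the spread of either pair. The highest Cebpg means were those of all 4 conditions at 32 h, with 11.11 ± 0.00317 under the combination, 11.14 ± 0.06 under IL-6 and 10.97 ± 0.05 under HGF, against 11.09 ± 0.01 in unstimulated cells.

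Centred on the mean of the 4 conditions at each hour, the 28 group means of Cebpb and Cebpd correlated at r = 0.898, and those of Cebpa ran against both, at r = -0.485 with Cebpb and -0.517 with Cebpd. Cebpg lay between, at 0.614 with Cebpb, 0.487 with Cebpd and -0.438 with Cebpa. Uncentred, over the 29 group means with time included, Cebpa correlated at 0.556 with Cebpb, 0.693 with Cebpg and -0.195 with Cebpd, Cebpb at 0.746 with Cebpg and 0.574 with Cebpd, and Cebpd at 0.174 with Cebpg. The points share arrays and, once centred, the hour's mean, and the correlations are descriptions. By the same measure the genes most like Cebpd were Socs3, the feedback inhibitor of gp130 signalling (r = 0.961), Bcl2l11 (0.955), Bcl3 (0.954) and B4galt1 (0.949). Those most like Cebpb were the kinase gene Pim1 (0.952), C730049O14Rik (0.938), Afdn (0.937) and Fem1b (0.934). For Cebpa they were Nudt3 (0.895), Hyal2 (0.866), Mkrn2 (0.864) and Os9 (0.863), and for Cebpg the BMP receptor gene Bmpr2 (0.911), Ice1 (0.884), Qser1 (0.869) and Thap1 (0.863). Ranked by Spearman's coefficient instead, 1 of the 4 genes was again among the top 4 for Cebpa, 2 for Cebpb, 1 for Cebpd and 2 for Cebpg. Ranked over the uncentred means, 0 were for Cebpa, 1 for Cebpb, 3 for Cebpd and 0 for Cebpg.

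The related genes below are counted by the F-test over 7 hours. Of all genes 31.3% rose and 36.7% fell by this test under the combination, 23.4% rose and 31.7% fell under IL-6, and 29.8% rose and 32.8% fell under HGF. Among 12 measured bZIP relatives and dimer partners, 6 rose, 3 fell and 3 did not pass under the combination, 6 rose, 2 fell and 4 did not pass under IL-6, and 5 rose, 4 fell and 3 did not pass under HGF. In these arms the test passed for 68%, 55.1% and 62.6% of all genes. The median difference of the 12 over 8 to 32 h was 0.05, 0.01 and 0.00 in these arms, beside 0.00, -0.01 and 0.01 over all genes. Here too, differences from unstimulated cells at 0.5 to 4 h cross the labelling classes. Ddit3, which encodes CHOP, a stress-induced C/EBP relative that binds DNA poorly as a C/EBP heterodimer, reached 1.15 at 8 h (SE 0.13) under the combination, 0.82 at 4 h (SE 0.13) under IL-6 and 1.63 at 16 h (SE 0.13) under HGF. Nfil3, a repressor of the PAR bZIP targets, reached 0.93 at 8 h (SE 0.06) under the combination, 0.68 at 8 h (SE 0.06) under IL-6 and 0.80 at 16 h (SE 0.06) under HGF. Dbp, a PAR bZIP activator and clock output, fell under HGF (-1.25 at 8 h, SE 0.22) and rose under IL-6 (1.17 at 32 h, SE 0.22) and the combination (1.11 at 32 h, SE 0.22). Compared directly at each gene's hour of largest difference, IL-6 exceeded HGF for 7 of the 12 and was lower for none. By the same count 22.3% of all genes were higher and 28.9% lower. Ddit3 stood at 1.39 at 4 h (SE 0.13) and the stress-induced Atf3 at 1.05 at 4 h (SE 0.09). The sign can differ at other hours: Ddit3 reached 1.63 at 16 h under HGF, and at most 0.82 in size under IL-6 at any hour.

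**Figure D4:**
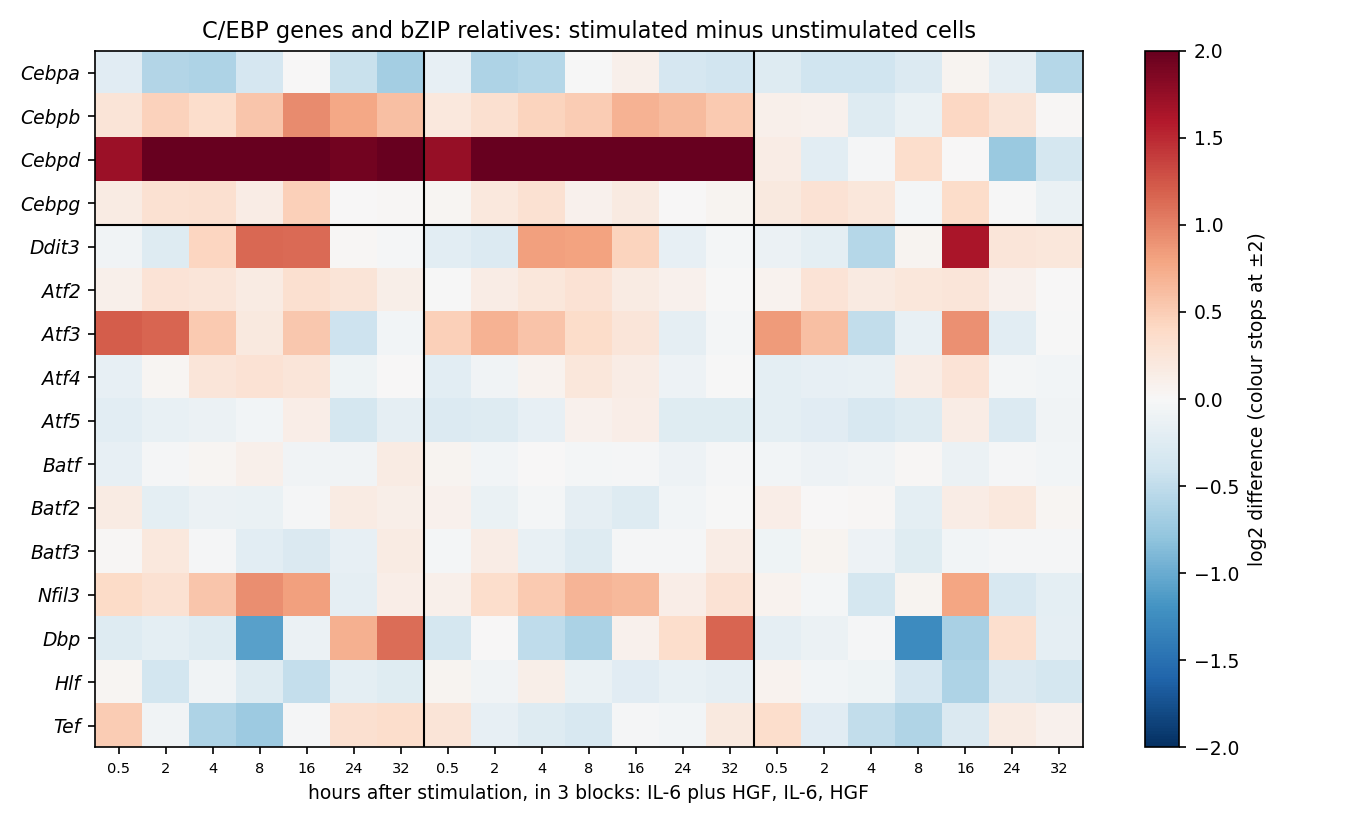
Log2 difference from unstimulated cells of the same hour (colour, red higher and blue lower, with the scale ending at 2 in either direction) for the 4 C/EBP genes (top) and 12 bZIP relatives (below), in blocks of 7 hours for IL-6 plus HGF, IL-6 and HGF. Cebpd exceeds 2 at most hours of both IL-6 blocks, and Ddit3, Atf3 and Nfil3 have their largest HGF differences at 16 h, at 1.63, 0.91 and 0.80.

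Genes that act on C/EBP proteins moved as well. Under the combination and under IL-6 10 of the 14 measured rose, 3 fell and 1 did not pass, and 9 rose, 4 fell and 1 did not pass under HGF, where the test passed for 68%, 55.1% and 62.6% of all genes under the combination, IL-6 and HGF. The median difference over 8 to 32 h was 0.14, 0.09 and 0.01 in these arms, beside 0.00, -0.01 and 0.01 over all genes. Trib1, a pseudokinase that guides the ubiquitin ligase COP1 to C/EBP alpha, reached 1.46 at 2 h (SE 0.09) under the combination, 0.82 at 32 h (SE 0.09) under IL-6 and 0.65 at 2 h (SE 0.09) under HGF. Within 1 class Trib1 was higher with IL-6 than with HGF (1.15 at 32 h, SE 0.09). Its relative Trib3 reached 1.19 at 16 h (SE 0.11), 0.84 at 4 h (SE 0.11) and 1.25 at 16 h (SE 0.11) in the same order of arms. Smarca2, a chromatin remodelling ATPase and partner of C/EBP beta, fell in all 3, with differences of -1.04 at 8 h (SE 0.09), -0.74 at 32 h (SE 0.09) and -0.61 at 8 h (SE 0.09).

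Of 13 liver metabolic genes that C/EBP factors are known to control, 10 fell, 2 rose and 1 did not pass under the combination, 9 fell, 2 rose and 2 did not pass under IL-6, and 10 fell, 1 rose and 2 did not pass under HGF. Their median difference over 8 to 32 h was -0.71, -0.40 and -0.90 in these arms, beside 0.00, -0.01 and 0.01 over all genes, of which 36.7%, 31.7% and 32.8% fell. Pck1, which encodes the gluconeogenic enzyme phosphoenolpyruvate carboxykinase, fell in all 3 arms, with differences of -2.16 at 8 h (SE 0.27), -1.68 at 8 h (SE 0.27) and -2.24 at 16 h (SE 0.27). Tat, a tyrosine aminotransferase gene, fell under the combination (-1.67 at 24 h, SE 0.14). Of 9 acute phase genes known as C/EBP targets, 3 rose, 5 fell and 1 did not pass under the combination, 7 rose and 2 fell under IL-6, and 3 rose and 6 fell under HGF, where 31.3%, 23.4% and 29.8% of all genes rose. Their median was -0.01 under the combination, 0.35 under IL-6 and -0.11 under HGF. Crp, which encodes C-reactive protein, reached -0.97 at 8 h (SE 0.17) under the combination, 1.24 at 24 h (SE 0.17) under IL-6 and -1.88 at 16 h (SE 0.17) under HGF. Haptoglobin, Hp, stood higher under IL-6 (0.71 at 32 h, SE 0.04) and lower under HGF (-0.94 at 32 h, SE 0.04), and Lcn2, an iron carrier binding protein, rose under the combination (0.86 at 32 h, SE 0.05) and IL-6 (1.04 at 32 h, SE 0.05). In unstimulated culture all 9 fell below their 0 h level, where 34.6% of all genes fell and 40.4% rose. Their median difference from 0 h over 8 to 32 h was -0.76, beside -0.01 over all genes. Differences of these hours from 0 h cross the labelling classes.

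Of 9 measured genes of the IL-6 receptor pathway, 7 rose and 2 fell under the combination and under IL-6, and 5 rose, 3 fell and 1 did not pass under HGF, where 31.3%, 23.4% and 29.8% of all genes rose under the combination, IL-6 and HGF. Their median difference over 8 to 32 h was 0.17, 0.17 and -0.09 in these arms, beside 0.00, -0.01 and 0.01 over all genes. Stat3, the transcription factor downstream of gp130, rose by 1.23 at 32 h (SE 0.07) under the combination and 1.13 at 32 h (SE 0.07) under IL-6, and under HGF its largest difference was -0.30 at 24 h (SE 0.07). The genes of these lists were tested in the same fit as the C/EBP genes, and no test asks whether their shifts follow those of the C/EBP transcripts.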

How the data were processed

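The authors deposited log2 intensities of 60 arrays. Their summary and scaling steps are not stated in the sources used here. Per the labels' protocols, RNA was labelled with biotin by the Affymetrix One-Cycle protocol. Array medians lay between 4.88 and 4.97, and the values were used as deposited. No pair of arrays was identical (1770 pairs).

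GEO's platform annotation, which can be old, gave 1 symbol to 34958 probe sets, several to 932 and none to 9211, and the last 2 kinds were left out. A gene was kept when its brightest probe set was above the 40th percentile of signal on 2 or more arrays. Trib2 did not pass. Cebpe, C3, Rps6ka1 and another list gene were not analysed here. Saa1 and Saa2, and Orm1 and Orm2, are near-identical copies, and values under these names are uncertain.

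One mean per group was fitted over all 60 arrays by limma 3.58.1 (R 4.3.3), with a mean-variance trend in eBayes and 31 residual degrees of freedom. Each of 8 comparisons was a moderated F-test over the matched hours, and 3 contrasts compared an effect at 32 h with that at 8 h. P-values were adjusted by Benjamini-Hochberg over 14513 genes, within the hour for single hours, with a threshold of 0.05. A gene that passed rose or fell by the sign of its largest difference. Of each list at most 4 genes that passed were named per comparison, those with the largest differences, and likeness to a member was ranked over 28 hour-centred group means. The members and lists were chosen with earlier results of these data known. The pipeline was tested on simulated data. Alternatives were quantile normalization, 2 other filters, the mean over probe sets, each other probe set, the replicate number as a block, only the conditions compared, no trend, robust variance, 8 to 32 h alone and leaving out each array.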

Additional observations from a re-analysis of the deposited data

Results flagged for a closer look

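For 3 of the C/EBP genes the response to both factors differed from the sum of the single responses, by limma's interaction test. Over 7 hours its adjusted p was 0.00335 for Cebpa, 0.00373 for Cebpb and 0.00559 for Cebpd. On the probe sets used the term was largest at 0.41 for Cebpa at 2 h, at 0.17 for Cebpb at 8 h and at 0.36 for Cebpd at 24 h, and the hour's own test did not pass for Cebpb (adjusted p = 0.0997). The second Cebpb probe set gave 0.73 at 4 h (adjusted p = 1.33e-07). The Cebpd term did not pass on the second probe set (-0.06, adjusted p = 0.917) or the mean over probe sets (adjusted p = 0.5). The Cebpa hour crosses the labelling classes, and its term did not pass over 8 to 32 h alone.

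Responses that differed between 8 and 32 h, by a test of the change itself, were those of Cebpd and Cebpb to HGF and of Cebpa to IL-6 and to the combination. The HGF difference of Cebpd changed by -0.70 (SE 0.12, adjusted p = 2.15e-05) and passed in all 32 fits that left out 1 array, but not on the second probe set (-0.46, adjusted p = 0.0897). That of Cebpb changed by 0.16 (adjusted p = 0.0483), and 23 of the 32 such fits did not pass. The IL-6 difference of Cebpa changed by -0.38 (adjusted p = 0.0268) and that under the combination by -0.35 (adjusted p = 0.0274). Each of these Cebpa changes failed in 6 of 32 fits. Both did not pass without unstimulated 8 h replicate 1 or either unstimulated 32 h array. The IL-6 change also failed without IL-6 8 h replicate 1 or either IL-6 32 h array, and the combination change without combination 8 h replicate 2 or either combination 32 h array. Over these leave-one-out fits the adjusted p reached 0.102 for IL-6 and 0.191 for the combination. Among all genes 15.6% passed for the change of the HGF effect, 10.1% for IL-6 and 16.9% for the combination.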

How the results depend on the processing

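There were 44 results for the 4 C/EBP genes. Fits that left out an array are not in the count that follows. They changed further results, as given below. In every other setting on the same probe set, 39 results kept their direction and side of the threshold. The exceptions in those settings were these. Under quantile normalization the change of the IL-6 effect on Cebpd between 8 and 32 h was 0.0344. The change of the HGF effect on Cebpb (0.161) did not pass with no filter (adjusted p = 0.0618), with no trend (0.0839) or with the replicate block (0.0549), and the change of the combination effect on Cebpd passed with the block (-0.309, adjusted p = 0.0378). The Cebpg interaction passed with the filter at the 60th percentile (-0.204, adjusted p = 0.0461). Over 8 to 32 h alone the interaction called 2862 genes, against 4872 over all hours, and stood at 0.271 for Cebpa (not passing) and 0.0963 for Cebpg.

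Other probe sets changed more. On the mean over probe sets, Cebpg under the combination against HGF (0.114), the Cebpd interaction (0.153) and the Cebpb change under HGF (0.135) did not pass, the Cebpg interaction (-0.327) and the Cebpb change under IL-6 (0.197) did, and the Cebpd change under IL-6 was 0.153. The dimmer of the other Cebpg probe sets gave -0.407 for IL-6 against HGF, -0.0246 for the combination against HGF and 0.253 against IL-6, none passing. The brighter gave -0.202 for IL-6 against HGF (not passing), and -0.213 for the interaction and -0.337 for the combination change, both passing. By limma at the single hour, IL-6 against HGF passed at 16 h on the dimmer (adjusted p = 0.0206) and the brighter (adjusted p = 0.00789). The interaction on the brighter did not pass at 4 h (adjusted p = 0.0953). The other Cebpb probe set gave changes of 0.109 under HGF (not passing), 0.391 under IL-6 and 0.265 under the combination (both passing). The other Cebpd probe set gave 0.0593 under HGF, 0.00129 for the combination against IL-6, -0.058 for the interaction, 0.122 for unstimulated hours against 0 h, and changes of -0.464 under HGF and 0.372 under IL-6, none passing. The causes were not tested.

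With 1 array left out in turn, the change between 8 and 32 h ranged from -0.449 to -0.256 for Cebpa under the combination, from -0.412 to -0.344 under IL-6, from 0.104 to 0.218 for Cebpb under HGF, from -0.0539 to 0.0606 under IL-6 and from -0.00731 to 0.107 under the combination. It ranged from -0.408 to -0.21 for Cebpd under the combination, from -0.166 to 0.032 under IL-6, and from -0.0868 to 0.00443 for Cebpg under IL-6. The Cebpg interaction ranged from -0.257 to -0.151 and passed in 14 of 60 such fits. The change of the IL-6 effect called 924 to 1517 genes, against 1467 on all arrays, with 924 without IL-6 8 h replicate 2, 936 without unstimulated 8 h replicate 2 and 964 without unstimulated 32 h replicate 2. Of 121 calls of the members at single hours, the interaction not counted, 90 held in every such fit and in every other setting. These settings used the same probe set or the mean over probe sets, and the count was made after seeing the data. The interaction calls at single hours held less well. They did not pass in 4 of 60 such fits for Cebpa at 2 h, 7 for Cebpa at 4 h, 34 for Cebpd at 4 h and 16 for Cebpd at 24 h. With group means subtracted, the replicate 1 arrays of different groups correlated at -0.269 to 0.252, with a median of -0.000435 (378 pairs of groups). These values show no pairing by number common to all groups, and pairing between some groups was not tested. The replicate block changed no member's call over all hours or between 8 and 32 h besides those above. At single hours it changed 3: Cebpd under the combination against IL-6 passed at 2 h (-0.244, adjusted p = 0.0326), and unstimulated Cebpb at 16 h (-0.0879, adjusted p = 0.0863) and Cebpd at 0.5 h (0.264, adjusted p = 0.0523) against 0 h did not.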
